A study of Macaca mulatta with 36 samples.

Results

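The genes described here build microtubules or move along them: the tubulins that form the filaments, the kinesins, most of which walk toward the growing end, and the subunits of cytoplasmic dynein, which walks the other way. The genes were taken by name from the array annotation, as every gene whose symbol began with TUBA, TUBB, TUBG, KIF and a digit, KLC and a digit, DYNC or DYNL on a probe set annotated with that symbol alone. A probe set is the group of short oligonucleotides on an Affymetrix array that together measure 1 transcript. Of 14132 genes with such a probe set, 53 qualified, and each was represented by its probe set of highest mean signal over all arrays. They were 9 tubulins and proteins of the gamma tubulin complex, 29 kinesins, 4 kinesin light chains and 11 dynein subunits. The rule used names and mean signal and no difference between the groups, although it was set with earlier results of these data known.

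Total RNA of the hippocampus was measured in 18 male rhesus macaques on 36 arrays. The SIVE animals were 9 monkeys with simian immunodeficiency virus encephalitis, a brain inflammation of infected macaques, aged 2 to 6 years, of which 4 had received an anti-CD8 antibody that removes CD8 T cells and 5 had not. The Control animals were 9 uninfected monkeys aged 3 to 8 years, of which 2 had received anti-CD8 and 7 had not. No infected animal without encephalitis was analysed here, so infection and encephalitis cannot be told apart. Each animal had 2 arrays labelled as technical replicates, which were averaged, so that n = 9 in each group.

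Microtubules are hollow polymers of alpha and beta tubulin, and gamma tubulin with its partner proteins starts new ones. In neurons they fill axons and dendrites, where most kinesins carry vesicles, mitochondria and RNA outward and cytoplasmic dynein 1 carries signalling endosomes and worn organelles back to the cell body. Another set of kinesins serves the mitotic spindle of dividing cells, and dynein 2 works inside cilia. All levels below are log2 RMA signal, on which a difference of 1 is a doubling. Differences are SIVE minus Control with the standard error (SE) of the limma fit, and the threshold was an adjusted p of 0.05 over all 52707 probe sets tested.

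Of the 53 genes, 4 passed the threshold. KIF2C, a mitotic kinesin, and KIF1B, a transport kinesin, rose in SIVE hippocampus, while TUBB3, the beta tubulin of neurons, and KIF25 fell. Among all 14132 genes 7.23% passed, with 5.72% higher and 1.51% lower in SIVE, so the share of microtubule genes that passed was near the background. The differences were small, from -0.51 to 0.50. A negative difference was found in 41 of 53 genes, or 77.4%, against 55.6% of all genes, and the median difference was -0.06 against -0.02 over all genes. After each array was centred on its median the difference was negative in 36 of 53 genes, or 67.9%, against 49.5% of all genes. At an unadjusted p under 0.05, 5 were higher and 11 lower in SIVE, where 12.9% and 12.7% of all genes were, or 25.6% in both directions.

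The groups overlapped for all 53 genes, while they did not overlap for 1.95% of all genes. All 9 SIVE animals lay above the Control median for 4 genes (KIF1B, KIF2C, KIF4A and KIF24), and 7.98% of all genes did so. For 7 genes all 9 lay below it (TUBB3, KIF5A, KIF5C, KIF6, KIF19, KIF25 and KIF27), and 5.47% of all genes did so. The signal of 40 genes reached the median probe set level of 5.65 in at least 1 group mean, and the other 13 were dimmer. Because the tissue was measured in bulk, fewer cells of a type and less RNA per cell cannot be told apart in any of these values.

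**Figure D1:**
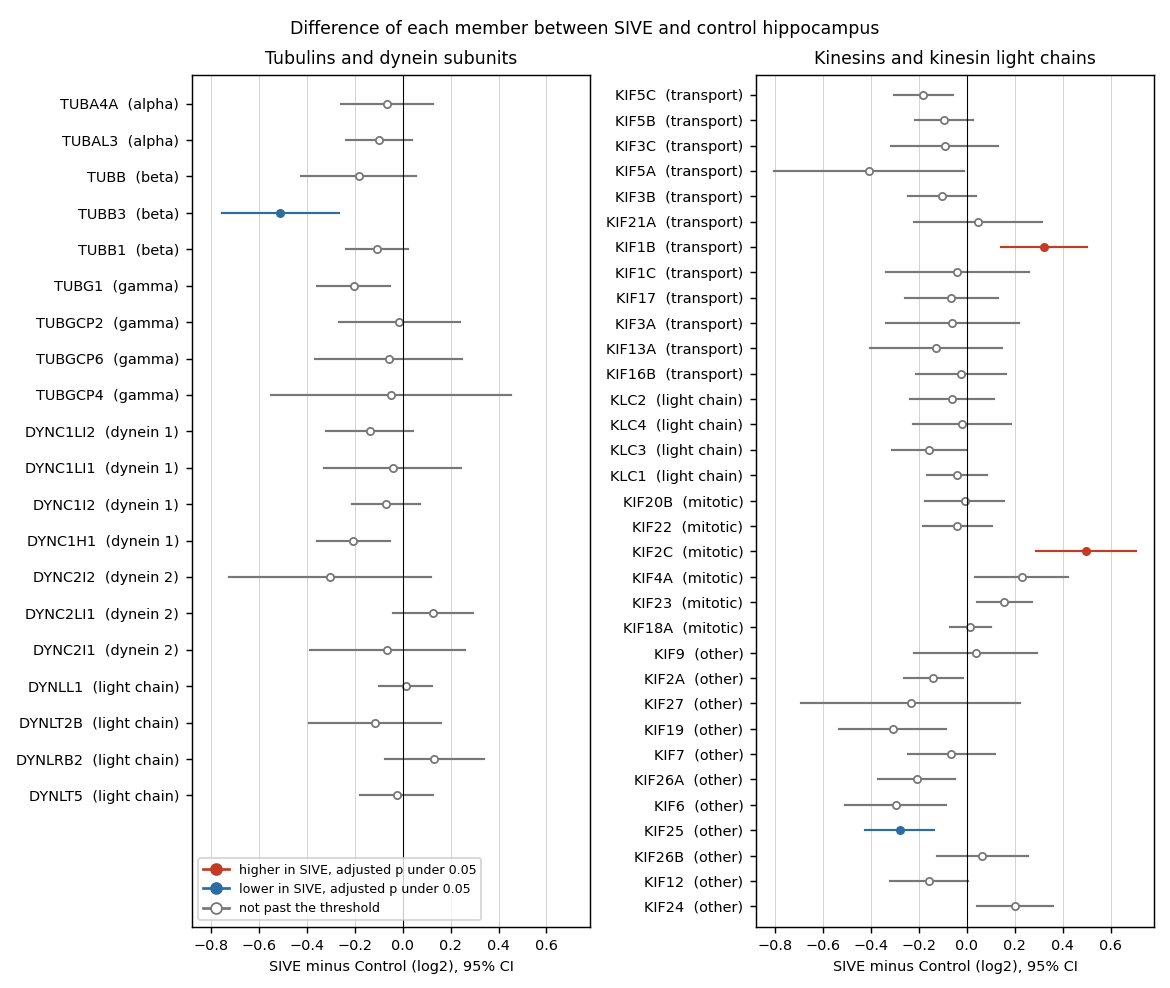
Difference of each of the 53 genes between SIVE and Control hippocampus (x axis, log2), with its 95% confidence interval as a line and its role in brackets, ordered by role and then by mean signal. KIF2C at 0.50 and KIF1B at 0.32 are the filled red points, TUBB3 at -0.51 and KIF25 at -0.28 the filled blue ones, and most open points lie left of 0.

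TUBB3, a marker of neurons that is built into axonal and dendritic microtubules, had the lowest difference of the 53 genes. In SIVE hippocampus its signal was 9.24 at the lowest, 9.99 at the median and 10.24 at the highest, against 10.10, 10.33 and 10.75 in Control hippocampus. All 9 SIVE animals lay below the Control median and 7 lay below every Control animal. Its mean was 9.88 ± 0.29 in SIVE and 10.39 ± 0.23 in Control animals (SD, n = 9 each), a difference of -0.51 ± 0.12 (SE) and a SIVE level 0.701 times that of Control animals (limma, adjusted p = 0.0118). The lowest value, 9.24, belonged to SIVE 9, and without that animal the difference was -0.43 (adjusted p = 0.0112).

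TUBB3 had 3 further probe sets. A pair of bright ones gave -0.49 each, with adjusted p of 0.0955 and 0.0969, and a dim one gave -0.14 (adjusted p = 0.286). All 4 thus had the same sign, while only the chosen one passed. The bright pair share a name up to its suffix and had nearly the same values, so they may not be separate measures.

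Other markers of neurons were set beside TUBB3. Of 7 measured genes of mature neurons, among them the synaptic vesicle protein SYT1 and the glutamate transporter SLC17A7, 0 passed the threshold and 0 had an unadjusted p under 0.05. Their mean level ran from 9.87 to 10.12 in SIVE and from 9.78 to 10.27 in Control animals, and no marker was near the floor of the array. Of 5 measured genes of young neurons, 1 fell and all 5 differences were negative. The gene that fell was SOX11, a transcription factor of newborn neurons, at 6.18 ± 0.29 in SIVE and 6.74 ± 0.26 in Control animals (SD, n = 9 each; limma, adjusted p = 0.00941). The mean level of the young neuron genes ran from 8.36 to 8.74 in SIVE and from 8.74 to 9.09 in Control animals. The part of these cells in the TUBB3 difference was not tested.

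The remaining 8 genes of tubulins and the gamma tubulin complex did not pass the threshold. All 9 differences, that of TUBB3 included, were negative, although 1 of them, that of TUBGCP2, turned positive after median centring. TUBB, a beta tubulin of most cell types, was 11.50 ± 0.22 in SIVE and 11.68 ± 0.28 in Control animals (SD, n = 9 each), a difference of -0.18 (adjusted p = 0.366). Its other probe set gave -0.17 (adjusted p = 0.156). TUBB1, the beta tubulin of platelets and megakaryocytes, had a dim signal of 4.95 ± 0.13 in SIVE and 5.05 ± 0.11 in Control animals (SD, n = 9 each), and its difference was -0.11. TUBA4A, an alpha tubulin, differed by -0.07 ± 0.09 (SE), less than its spread of 0.19 (SD) among SIVE and 0.21 among Control animals. The alpha tubulin-like gene TUBAL3 was dim and differed by -0.10.

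TUBG1, the gamma tubulin that nucleates microtubules, had a signal of 8.82 at the lowest, 9.01 at the median and 9.29 at the highest in SIVE hippocampus, against 8.98, 9.24 and 9.48 in Control hippocampus. The groups overlapped, with 3 SIVE animals below every Control animal, and the difference was -0.20 ± 0.07 (SE; limma, adjusted p = 0.115). Its partners in the gamma tubulin ring complex, TUBGCP2, TUBGCP4 and TUBGCP6, gave -0.01, -0.05 and -0.06 with adjusted p of 0.857 or more. For TUBGCP2 and TUBGCP6 the chosen probe set and the other one did not give the same picture. The second TUBGCP2 probe set was lower in SIVE by -0.33 (adjusted p = 0.0319), and that of TUBGCP6 was 0.32 (unadjusted p = 0.00361, adjusted p = 0.0638).

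**Figure D2:**
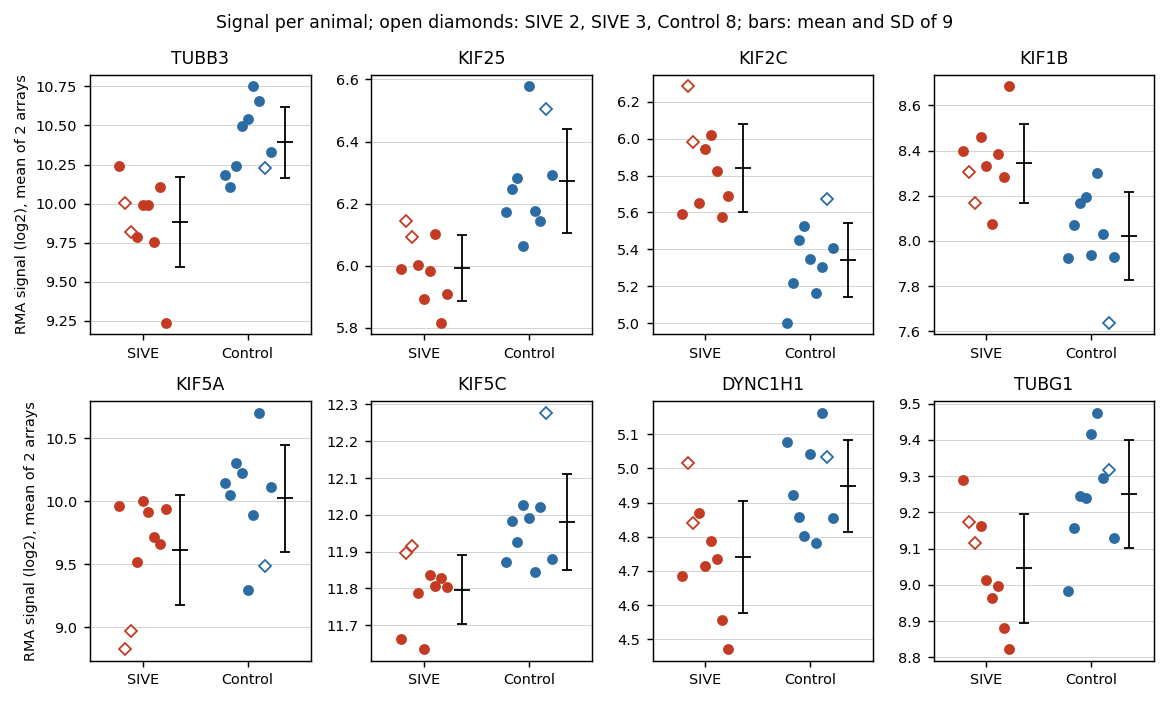
Signal of 8 genes in each animal (y axis, log2 RMA signal, mean of 2 arrays), SIVE left of Control; short bars show the mean and SD of 9 animals, and open diamonds mark SIVE 2, SIVE 3 and Control 8. For TUBB3, 7 SIVE animals lie below every Control animal, and for KIF2C and KIF1B, 6 SIVE animals lie above every Control animal.

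Among the 12 transport kinesins 1 passed the threshold. KIF1B, a kinesin-3 motor that carries mitochondria and synaptic vesicle precursors, had a signal of 8.07 at the lowest, 8.33 at the median and 8.68 at the highest in SIVE hippocampus, against 7.64, 8.03 and 8.30 in Control hippocampus. Every SIVE animal lay above the Control median, and 6 lay above every Control animal. The mean was 8.34 ± 0.17 in SIVE and 8.02 ± 0.19 in Control animals (SD, n = 9 each), a difference of 0.32 ± 0.09 (SE) and a 1.25-fold SIVE level (limma, adjusted p = 0.0350). This call was close to the threshold. It held in 10 of 18 fits that left out a single animal, and it was lost without SIVE 1, 4, 5, 7 or 9 or without Control 1, 5 or 9, where the adjusted p reached 0.0688 at most. Its other probe sets gave 0.22 (adjusted p = 0.196) and -0.20 (adjusted p = 0.733), and with the 3 averaged the difference was 0.11 (adjusted p = 0.658).

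The heavy chains of kinesin-1, the main motor of fast axonal transport, did not pass. KIF5C, found mostly in neurons, had a signal of 11.64 at the lowest, 11.81 at the median and 11.91 at the highest in SIVE hippocampus, against 11.84, 11.98 and 12.28 in Control hippocampus. Below the Control median lay all 9 SIVE animals, and 7 of them lay below every Control animal. The difference was -0.18 ± 0.06 (SE; limma, adjusted p = 0.0825). Its other probe set gave -0.30 (adjusted p = 0.0944). KIF5A, the neuronal heavy chain that is mutated in a human hereditary spastic paraplegia, was 8.83, 9.72 and 10.00 at the lowest, median and highest in SIVE hippocampus, against 9.29, 10.11 and 10.70 in Control hippocampus. All 9 SIVE animals were below the Control median, but the spread was wide, and the difference of -0.41 ± 0.19 (SE) had an adjusted p of 0.22. The lowest SIVE values were 8.83 in SIVE 2 and 8.97 in SIVE 3, and without those animals and Control 8 the difference was -0.27 (adjusted p = 0.251). KIF5B, the heavy chain of most cell types, differed by -0.10 (adjusted p = 0.357).

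The other 8 transport kinesins had differences between -0.13 and 0.04. The kinesin-2 subunits KIF3A, KIF3B and KIF3C gave -0.06, -0.10 and -0.09 on the chosen probe sets, with adjusted p of 0.383 or more. Both other probe sets of KIF3B were positive, with 0.08 and 0.12 (limma, adjusted p = 0.651 and 0.368). KIF17, which carries glutamate receptor subunits in dendrites, gave -0.06, and KIF21A, a kinesin that restrains microtubule growth, gave 0.04. The kinesin light chains, which tie kinesin-1 to its cargo, were KLC1, KLC2, KLC3 and KLC4. None of the 4 passed the threshold, 1 of them had an unadjusted p under 0.05, and their differences lay between -0.16 for KLC3 (adjusted p = 0.228) and -0.02 for KLC4. After quantile normalization or median centring 3 of the 4 were negative.

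The mitotic kinesins were considered apart from the transport motors, since they serve the spindle of dividing cells. KIF2C, which takes microtubules apart at the centromere, had the highest difference of the 53 genes. In SIVE hippocampus its signal was 5.58 at the lowest, 5.83 at the median and 6.28 at the highest, against 5.00, 5.35 and 5.67 in Control hippocampus. The 9 SIVE animals were all above the Control median, 6 of them above every Control animal. The mean was 5.84 ± 0.24 in SIVE and 5.34 ± 0.20 in Control animals (SD, n = 9 each), a difference of 0.50 ± 0.10 (SE) and a 1.41-fold SIVE level (limma, adjusted p = 0.00438). The call held in all 18 fits that left out a single animal. A dimmer second probe set gave -0.13 (adjusted p = 0.319), and the mean of both gave 0.18 (adjusted p = 0.139).

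Of the 6 mitotic kinesins measured, KIF2C was the only one past the threshold, with a median difference of 0.08 over all 6. KIF4A, a motor of condensed chromosomes, was 5.35 ± 0.16 in SIVE and 5.12 ± 0.24 in Control animals (SD, n = 9 each), a difference of 0.23 (adjusted p = 0.171), and it passed without Control 8, with 0.29 (adjusted p = 0.0476). KIF23, a motor of the central spindle, was dim at 3.92 ± 0.12 in SIVE and 3.76 ± 0.09 in Control animals (SD, n = 9 each), with 7 SIVE animals above every Control animal and a difference of 0.16 (limma, adjusted p = 0.114). KIF18A, which aligns chromosomes, was near the floor of the array, with group means of 2.83 in SIVE and 2.82 in Control animals. KIF20B, a motor of cytokinesis, and KIF22, a chromosome-binding motor, were brighter and differed by -0.01 and -0.04. The 3 further probe sets of KIF20B were all positive, between 0.02 and 0.13, and none passed the threshold.

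Other genes of the cell cycle were set beside them. Of 20 measured, 8 rose in SIVE and 0 fell, where 5.72% and 1.51% of all genes did. At an unadjusted p under 0.05, 11 were higher and 0 lower, against 12.9% and 12.7% of all genes. The median difference was 0.31. Negative differences were found for 5 genes, between -0.19 for AURKA (limma, adjusted p = 0.272) and -0.02 for RACGAP1. In Control animals 9 of the 20 reached the median probe set level, and the others were dimmer. TOP2A, a topoisomerase of dividing cells, was 5.97 ± 0.50 in SIVE and 4.62 ± 0.35 in Control animals (SD, n = 9 each), a difference of 1.34 (limma, adjusted p = 0.000109). The replication genes TYMS, MCM2 and PCNA rose by 0.86, 0.53 and 0.46, the mitotic cyclin CCNB2 by 0.77, and NCAPG, CCNA2 and TPX2 by 0.60, 0.45 and 0.38. The mean level of the 20 genes ran from 5.58 to 5.93 in SIVE and from 5.39 to 5.52 in Control animals, so the groups did not overlap. Because the list was drawn up with earlier results of these data known, this separation is a description and not an independent test. The minus-end mitotic motor KIFC1, which the naming rule left out of the set, differed by 0.13 (adjusted p = 0.442).

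**Figure D3:**
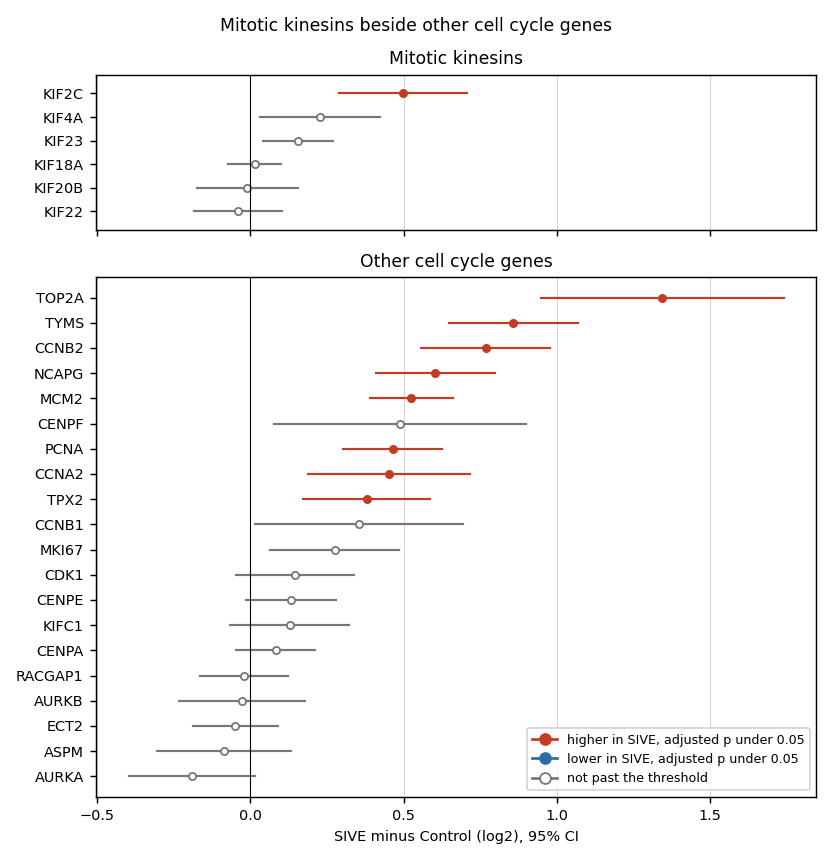
Differences of the 6 mitotic kinesins (upper panel) and of 20 other cell cycle genes (lower panel) between SIVE and Control hippocampus (x axis, log2), with 95% confidence intervals. KIF2C at 0.50 is the filled point among the kinesins, and 8 cell cycle genes up to TOP2A at 1.34 are filled in the lower panel.

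Markers of other cells also moved with SIVE. Of 7 measured genes of macrophages and microglia, 4 rose, namely LYZ by 2.71, PTPRC by 1.52, CD14 by 1.18 and AIF1 by 0.83. CSF1R gave 0.45 (limma, adjusted p = 0.296). CD68 and ITGAM were negative, with -0.05 and -0.35 (limma, adjusted p = 0.804 and 0.323). The mean level of the 7 ran from 8.14 to 8.67 in SIVE and from 7.15 to 7.67 in Control animals. Of 7 lymphocyte genes 1 rose, the immunoglobulin joining chain JCHAIN, by 2.81 (limma, adjusted p = 0.000152). The other 6 differences lay between -0.28 and 0.36, 4 of them negative. The B cell genes were split at an unadjusted p under 0.05. CD79A and CD79B were lower, with -0.19 and -0.28, and MS4A1 was higher, with 0.36 (limma, adjusted p = 0.108). The mean level of the 7, JCHAIN included, ran from 5.55 to 6.24 in SIVE and from 5.47 to 5.81 in Control animals. Of 5 endothelial genes 3 rose, VWF by 0.98, PECAM1 by 0.83 and CDH5 by 0.52. CLDN5 and FLT1 gave 0.11 and -0.03 (limma, adjusted p = 0.780 and 0.824). The mean level of the 5 was 6.98 to 7.98 in SIVE and 6.71 to 7.57 in Control animals. Of 3 oligodendrocyte genes measured from a list of 8, 2 fell, MBP by 0.32 and UGT8 by 0.58. CNP gave 0.06 (limma, adjusted p = 0.486). Of 4 astrocyte genes, GFAP rose by 0.36 and SLC1A2 fell by 0.52. SLC1A3 and ALDH1L1 gave 0.12 and -0.20 (limma, adjusted p = 0.334 and 0.497). The part of these cells in the kinesin differences was not tested.

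The other 11 kinesins held 1 gene past the threshold. KIF25, a kinesin described at the centrosome of human cells, had a signal of 5.82 at the lowest, 5.99 at the median and 6.14 at the highest in SIVE hippocampus, against 6.06, 6.25 and 6.58 in Control hippocampus. All 9 SIVE animals lay below the Control median and 6 below every Control animal. The mean was 5.99 ± 0.11 in SIVE and 6.27 ± 0.17 in Control animals (SD, n = 9 each), a difference of -0.28 ± 0.07 (SE) and a SIVE level 0.823 times that of Control animals (limma, adjusted p = 0.0204). The call held in all 18 fits that left out a single animal. The other probe sets, both dim, gave -0.20 (adjusted p = 0.077) and -0.06 (adjusted p = 0.596), and with the 3 averaged the difference was -0.18 (adjusted p = 0.0537).

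Some of these kinesins serve cilia. KIF6 and KIF19, both known from cilia in the mouse, differed by -0.30 (adjusted p = 0.0989) and -0.31 (adjusted p = 0.107), with all 9 SIVE animals below the Control median for each. KIF6 passed without Control 9, at -0.35 (adjusted p = 0.0403). The 2 arrays of Control 9, an animal on which the KIF1B call also depended, had a correlation over all probe sets of 0.976, against 0.992 or more in the other 17 animals. KIF9, a motor of motile cilia, differed by 0.04 on the chosen probe set. The 4 further ones were all negative, between -0.18 and -0.07, and 1 of them, at -0.13, had an unadjusted p of 0.0263 (adjusted p = 0.176). KIF7, a regulator of Hedgehog signalling in the primary cilium, and its relative KIF27 gave -0.07 and -0.24, with adjusted p of 0.701 and 0.559. The KIF27 difference ran from -0.36 without Control 8 to -0.12 without SIVE 3. KIF24, which holds back cilium formation, was dim and differed by 0.20 (adjusted p = 0.142). Of 9 measured markers of ependyma and motile cilia 0 passed the threshold, with 0 higher and 1 lower at an unadjusted p under 0.05. Their mean level ran from 5.80 to 6.17 in SIVE and from 5.69 to 6.35 in Control animals.

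KIF2A, a microtubule depolymerase that limits the growth of axon branches in the mouse, was 8.66 ± 0.13 in SIVE and 8.80 ± 0.09 in Control animals (SD, n = 9 each). Its difference of -0.14 did not pass (adjusted p = 0.184), with 6 SIVE animals below every Control animal. KIF26A, an atypical kinesin that lacks ATPase activity, differed by -0.21 (adjusted p = 0.126), and its dimmer second probe set by -0.38 (adjusted p = 0.0331).

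**Figure D4:**
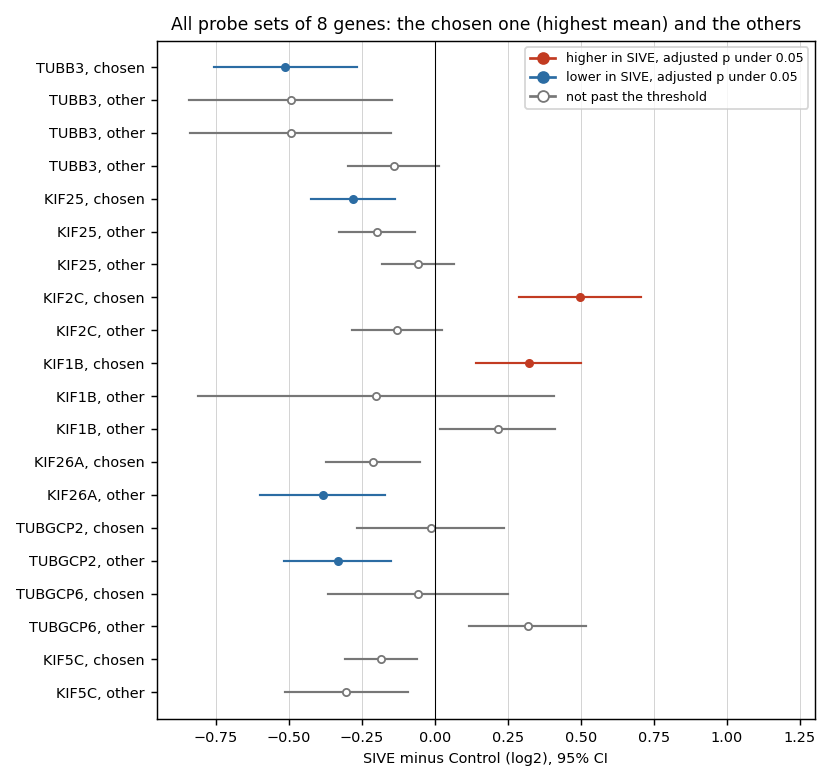
Differences of every probe set of 8 genes (x axis, log2) with 95% confidence intervals, the brightest probe set of a gene marked as chosen. The 4 TUBB3 probe sets all lie left of 0, those of KIF2C, KIF1B and TUBGCP6 lie on both sides of 0, and KIF26A and TUBGCP2 each have a dimmer probe set that passed the threshold where the chosen one did not.

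The probe sets of a gene often differed in this way. The 53 genes had 97 probe sets, and 29 genes had more than 1. Of the 44 probe sets that were not chosen, 29 had the sign of the chosen one, and in 20 of 29 genes all probe sets had the same sign. Over all 97 probe sets 2 were higher and 4 lower in SIVE, against a background of 6.6% of the probe sets with a single symbol that passed in either direction. A further pair of probe sets carried a tubulin symbol joined with that of another gene, so that they belong to no single gene, and each gave -0.14.

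None of the 11 dynein subunits passed the threshold, 0 of them were higher and 1 was lower at an unadjusted p under 0.05, and their median difference was -0.06. That 1 was DYNC1H1, the heavy chain of cytoplasmic dynein 1 that carries the motor domain. Its signal was dim, at 4.47 at the lowest, 4.74 at the median and 5.02 at the highest in SIVE hippocampus, against 4.78, 4.92 and 5.16 in Control hippocampus. The groups overlapped, 5 SIVE animals lay below every Control animal, and the difference was -0.21 ± 0.07 (SE; limma, adjusted p = 0.113). It passed without SIVE 2, at -0.24 (adjusted p = 0.0476).

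The other dynein 1 subunits were flatter. DYNC1LI2, a light intermediate chain that binds cargo adaptors, was 10.74 ± 0.21 in SIVE and 10.88 ± 0.16 in Control animals (SD, n = 9 each), and its 4 probe sets gave between -0.24 and -0.10. DYNC1LI1, the second light intermediate chain, and DYNC1I2, an intermediate chain that binds dynactin, gave -0.04 and -0.07. DYNLL1, a small light chain shared by many protein complexes, had group means of 12.28 ± 0.08 in SIVE and 12.27 ± 0.11 in Control animals (SD, n = 9 each), and the 95% confidence interval of its difference ran from -0.10 to 0.12. DYNLRB2, a roadblock light chain, and DYNLT2B, a light chain found in dynein 2, gave 0.13 and -0.12.

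In ciliary dynein 2, the light intermediate chain DYNC2LI1 gave 0.13 (adjusted p = 0.377). The intermediate chains DYNC2I1 and DYNC2I2 gave -0.06 and -0.30, with wide 95% confidence intervals of -0.39 to 0.26 and -0.73 to 0.12. Single animals moved some of these small differences: without SIVE 9 that of DYNC2I2 was -0.16, and without SIVE 2 that of DYNLT2B was -0.02.

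Proteins that act with these motors were counted from lists of 82 genes in 5 classes, of which 57 were measured. Of the 57, 1 rose and 0 fell, where 5.72% and 1.51% of all genes did. At an unadjusted p under 0.05, 4 were higher and 8 lower, against 12.9% and 12.7% of all genes. These counts were thus near or under the background. The median difference was -0.08, against -0.02 over all genes. The gene that rose was 1 of 7 end-binding proteins measured, MAPRE1, which binds growing microtubule ends, at 9.20 ± 0.23 in SIVE and 8.81 ± 0.19 in Control animals (SD, n = 9 each), a difference of 0.39 (limma, adjusted p = 0.0251). In dynactin, the activator of dynein, and the dynein regulators 0 of 14 passed, 1 was higher and 2 lower at an unadjusted p under 0.05, and ACTR1B and DCTN1 gave -0.25 (adjusted p = 0.0921) and -0.23 (adjusted p = 0.183). Of 12 microtubule-associated and severing proteins 0 passed, with 1 higher and 2 lower at an unadjusted p under 0.05. DCX, a microtubule protein of young neurons, gave -0.25 (adjusted p = 0.201), and STMN2, a tubulin-binding protein of growing axons, gave -0.22 (adjusted p = 0.303). DCX and STMN2 were also among the 5 young neuron genes above, so these are the same values counted in both lists. Of 9 cargo adaptors and 15 tubulin folding and modifying proteins, 0 passed in each list, with 0 higher and 2 lower in the first and 1 higher and 2 lower in the second at an unadjusted p under 0.05.

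The comparison was repeated within the anti-CD8 labels. Among animals without anti-CD8, 5 with SIVE and 7 controls, KIF2C was higher by 0.52 ± 0.12 (SE; limma, adjusted p = 0.0235), TUBB3 was lower with -0.61 ± 0.15 (SE; adjusted p = 0.0284), and TUBG1 was lower with -0.32 ± 0.08 (SE; adjusted p = 0.0285). That made 3 of 53 genes, where 4.77% of all genes passed. KIF25 at -0.30 ± 0.08 (SE; adjusted p = 0.0577) and KIF1B at 0.26 ± 0.10 (SE; adjusted p = 0.175) did not pass there. TUBG1 had means of 8.94 ± 0.08 in 5 SIVE animals and 9.26 ± 0.16 in 7 Control animals without anti-CD8 (SD).

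The animals with anti-CD8, 4 with SIVE and 2 controls, included all 3 animals of high 3′ signal (SIVE 2, SIVE 3 and Control 8). In this stratum 0 of 53 genes passed the threshold, where 1.51% of all genes did. At an unadjusted p under 0.05 lay 6 of the 53, and the share of all genes at that looser limit was not counted for this stratum. TUBB3 gave -0.32 ± 0.22 (SE), KIF2C 0.34 ± 0.18, KIF25 -0.34 ± 0.12, KIF1B 0.55 ± 0.15 and TUBG1 -0.04 ± 0.12 in these animals. The difference between the effects in both strata was tested in the same fit, and 0 of 53 genes and 0% of all genes passed. At an unadjusted p under 0.05 it held 1 of 53 genes, or 1.89%, against 1.90% of all genes. That gene was KIF21A, with 0.44 among animals with anti-CD8 and -0.01 among animals without it. Its signal in Control 8, 1 of the 2 controls with anti-CD8, was 8.76, and in SIVE 3 it was 9.24. Both lay below all animals without high 3′ signal, which ran from 9.29 to 9.94. The other KIF21A probe set gave -0.21 over all animals (limma, adjusted p = 0.620).

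Control transcripts of the array showed 3 animals apart. The signal of the 3′ probe sets of GAPDH, ACTB and EEF1A1 minus that of their 5′ probe sets, a measure of how complete the RNA was, lay between 0.948 and 1.46 in SIVE 2, SIVE 3 and Control 8, and between 0.105 and 0.465 in the other 15. All 3 had received anti-CD8. The group means were 0.440 ± 0.374 in SIVE and 0.416 ± 0.399 in Control animals (SD, n = 9 each; exact two-sided permutation test, p = 0.924). In 8 of 53 genes, or 15.1%, these 3 animals all lay outside the range of the other 15, against 18.2% of all genes. TUBGCP4 was 6.37 in SIVE 2, 6.64 in SIVE 3 and 6.23 in Control 8, where the other 15 animals lay between 7.37 and 8.11. KIF27 and DYNC1LI1 were lower in the 3 animals by 1.09 and 0.71 on average, and KIF1C and TUBGCP2 were higher by 0.66 and 0.56.

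Without the 3 animals the 4 calls stood, with TUBB3 at -0.54 (adjusted p = 0.0204), KIF25 at -0.29 (adjusted p = 0.0197), KIF2C at 0.45 (adjusted p = 0.00363) and KIF1B at 0.30 (adjusted p = 0.0356). KIF5C at -0.18 (adjusted p = 0.0487), KIF26A at -0.21 (adjusted p = 0.0487) and DYNC1H1 at -0.25 (adjusted p = 0.0495) then passed as well, so that 5 of 53 genes were lower and 2 higher, where 10.3% of all genes passed.

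**Figure D5:**
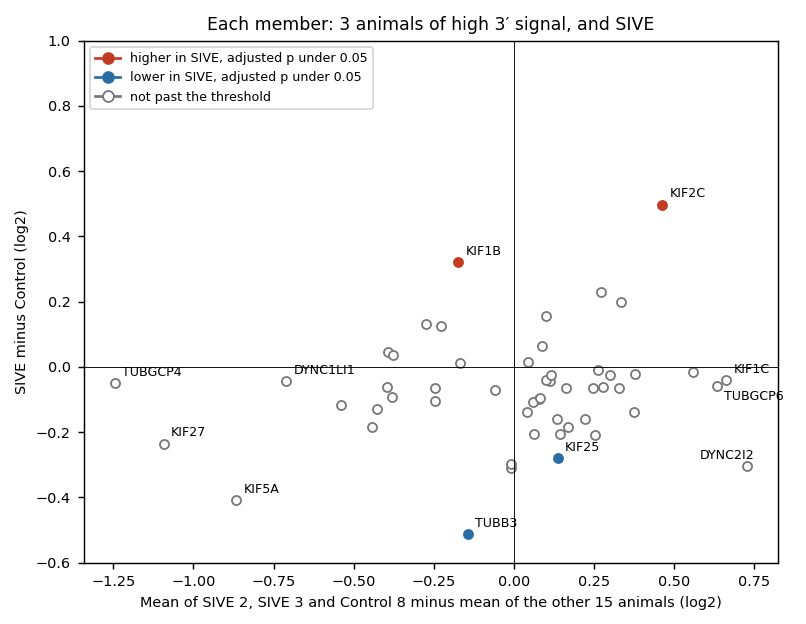
Each of the 53 genes by its mean in SIVE 2, SIVE 3 and Control 8 minus its mean in the other 15 animals (x axis, log2) and by its SIVE minus Control difference (y axis, log2); filled points passed the threshold. TUBGCP4 and KIF27 lie at -1.24 and -1.09 on the x axis with differences of -0.05 and -0.24 on the y axis, and of the called genes TUBB3 lies at -0.14, KIF1B at -0.17, KIF25 at 0.14 and KIF2C at 0.46 on the x axis.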

How the data were processed

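The submitters' processing notes name RMA as the source of the deposited values, a method that subtracts background, equalizes arrays and combines the probes of a probe set. The log2 scale was read from the deposited values, which run from 2.30 to 14.49. The sources used here give neither the version of RMA nor the probe definitions. Array medians lay between 5.59 and 5.75, and the number of animals, 9 in each group, limits the precision.

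Of 52865 probe sets, 99 Affymetrix controls and 59 reporters were left out. Of the platform annotation, 24969 probe sets have 1 symbol, 361 several and 27535 none. The 2 arrays of an animal were averaged, since the labels call them technical replicates, although the design text speaks of duplicate samples. Their median SD was 0.146, against 0.191 between animals of a group. The other 52707 probe sets were tested between 9 SIVE and 9 Control animals with limma 3.58.1 (R 4.3.3, moderated two-sided test), adjusted after Benjamini and Hochberg. The anti-CD8 strata came from a single fit of the 4 combinations of group and label. Known changes in simulated data were used to check the fit. Tables and figures used Python 3.11.15.

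The members and lists were chosen with earlier results of these data known. Genes were named if past the threshold, among the 3 of highest level in a role, or if another probe set gave another sign at an unadjusted p under 0.05, and list genes if past the threshold, at most 4 a list by smallest adjusted p. The remaining members and list genes in the text were picked after their values were seen. Alternatives included covariates, other scalings, all probe sets of a gene and leaving out each animal.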

Additional observations from a re-analysis of the deposited data

Results flagged for a closer look

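In 18 of 106 groups of 9 animals, 1 animal stood apart by a gap to the nearest other animal of about the width of the remaining values or more, where 5.3 groups would be found at 1 in 20. Control 8 accounted for 10 of them. It was highest for TUBGCP2 at 8.58, TUBGCP6 at 8.59, KIF5C at 12.28, KIF1C at 8.56, KIF17 at 6.96, KLC2 at 7.73, KLC4 at 7.41 and DYNC2I2 at 8.97, and lowest for TUBGCP4 at 6.23 and DYNC1LI1 at 8.67. Control 8 was also 1 of the 3 animals of high 3′ signal, and SIVE 2, another, was lowest among SIVE animals for DYNLT2B at 7.31.

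SIVE 9 was lowest among SIVE animals for TUBB3 at 9.24, KLC2 at 6.83 and DYNC2I2 at 6.54. SIVE 7 was lowest for KIF20B at 8.78. Control 5 was lowest among controls for KIF23 at 3.56 and highest for KIF19 at 7.43, and Control 1 was lowest for KIF18A at 2.71.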

How the results depend on the processing

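Across 31 alternatives, 18 of which left out a single animal, no gene that passed the threshold under any of them had the opposite sign there, and the cause of each change below was not tested. The 2 genes higher in SIVE became 1 with the replicate block, with a trended and robust variance prior and among animals without anti-CD8, and 0 with the mean of a gene's probe sets and among animals with anti-CD8. With the 3′ minus 5′ signal as a covariate they became 3, KIF24 being added. They ranged from 1 to 3 when single animals were left out. The 2 genes lower in SIVE became 0 with the replicate block and among animals with anti-CD8, 3 with 36 arrays and the animal as a random block, 4 with the 3′ minus 5′ signal as a covariate, and 5 with the anti-CD8 label as a covariate or without the 3 animals of high 3′ signal. Of all genes 10.9%, 12.7%, 13.4% and 10.3% passed in either direction in these last 4 fits, in that order. The lower genes ranged from 2 to 3 with single animals left out. The biological replicate numbers occur in both groups, but 0 of 9 pairs of same-numbered animals had deviations correlated above 0.1. No pairing was thus seen in the signal, which cannot show whether the animals were matched by design. Under the replicate block KIF2C passed (adjusted p = 0.0393), while TUBB3 (0.0539), KIF25 (0.136) and KIF1B (0.141) did not. Mitotic kinesins higher in SIVE, 1 in all animals, became 0 with the mean of probe sets and among animals with anti-CD8, and ranged from 1 to 2 with single animals left out. Transport kinesins lower in SIVE, 0 in all animals, became 1, KIF5C, with 36 arrays and the animal as a random block, with the anti-CD8 or the 3′ covariate and without the 3 animals, and stayed at 0 with single animals left out. Tubulin and gamma tubulin complex genes lower in SIVE, 1 in all animals, became 0 with the replicate block and among animals with anti-CD8. They became 2 with the anti-CD8 covariate and without anti-CD8, and stayed at 1 with single animals left out. Tubulin and gamma tubulin complex genes higher in SIVE were 0 under every alternative.

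Of the 49 genes that did not pass, 7 passed under at least 1 alternative and 21 changed sign under at least 1. Over all probe sets 2595 passed, against 1368 with the replicate block, 5294 with the anti-CD8 covariate, 4824 with the 3′ covariate, 1652 among animals without anti-CD8 and 555 among animals with it. Of the probe sets that passed, 73.7% were higher in SIVE, 84.4% after median centring, 88.0% with the replicate block, 59.5% with the 3′ covariate and 47.4% with the anti-CD8 covariate, where 2509 were higher and 2785 lower. Signal limits 13 genes, KIF18A, KIF23 and DYNC1H1 among them, whose group means were both below the median probe set level.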
